A study of Mus musculus with 8 samples.

Results

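Ccr1, Ccr2, Ccr3, Ccr4, Ccr6, Ccr7, Ccr8 and Ccr9 encode receptors for CC chemokines, and these 8 members of the family were chosen from the 750 immune-related genes of a NanoString nCounter mouse panel. The assay labels single transcripts with barcoded probes and counts the barcodes, with no amplification. The samples were 8 whole peritoneal tumors grown from MC38, a mouse colon cancer cell line, placed in the peritoneum of wild-type male C57BL/6 mice that were 7 to 8 weeks old. From day 7 after implantation, mice received the STING agonist RR-CDA (4 tumors) or PBS (4 tumors). By the study's methods RR-CDA was given as 2 intraperitoneal injections of 15 µg, tumors were collected 10 days after the first, and tumors from 2 experiments were pooled, but the experiment of each tumor was not named, so no comparison within an experiment was made. All groups carried the same tumor line in the same strain, and no cells were separated before RNA extraction.

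CC chemokine receptors are G protein-coupled receptors on the surface of leukocytes that sense gradients of secreted CC chemokines and steer cell migration. Ccr2 draws monocytes from bone marrow and blood into inflamed tissue and tumors, Ccr1 acts on monocytes, macrophages and neutrophils, and Ccr7 guides dendritic cells and naive T cells to lymph nodes. Ccr3 is best known from eosinophils, Ccr4 and Ccr8 from helper and regulatory T cells, Ccr6 from Th17 cells, B cells and dendritic cells, and Ccr9 from T cells that home to the gut.

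The summed counts of the 750 genes ran from 241506 to 414698 per tumor. Counts were divided by a factor that equalizes the geometric mean over 20 housekeeping genes between samples, and are given below as scaled counts. The background of a sample, the mean plus 2 SD of its 8 negative control probes, lay between 4.93 and 12 scaled counts. PBS controls 2 and 4 differed by less than counting noise over 353 genes of moderate count (chi-square of 0.393 per degree of freedom), whereas this value was 5.58 to 12.7 in the remaining 11 pairs from the same group. Their mean was used as 1 sample, leaving n = 3 PBS controls and n = 4 treated tumors. Nothing in the labels says that the samples are separate animals, so p-values measure only the spread between these samples.

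The averaged controls also stood apart from the other controls. Ptprc, which encodes the pan-leukocyte marker CD45, had 42.7 scaled counts there, against 110 in PBS control 1 and 113 in PBS control 3. Csf1r, the receptor for macrophage colony-stimulating factor, had 37.9 scaled counts there and up to 211 in the other controls. Summed neutrophil markers were highest there instead, at 565 scaled counts against 316 in PBS control 1 and 366 in PBS control 3. Most of that sum was 1 gene, S100a8, at 543 scaled counts. The other neutrophil markers, Cxcr2, Csf3r and Mpo, were not highest there. Cxcr2 was lowest there, at 9.48 against 11.3 in PBS control 1 and 16.8 in PBS control 3. The fold changes of Ccr1, Ccr2 and Ccr7 and their ratios to Ptprc are given below with and without this pair, and most other values only with it. The labels give the tissue as colon, but the tumors grew in the peritoneum. Of the epithelial genes looked for, 3 of 6 were on the panel, and Epcam, the epithelial cell adhesion molecule, had a mean count of 10.1, with 24 for Cdh1 and 15.6 for Muc1. These defining markers of epithelium were thus low, against an average background of 8.62 counts.

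Of the 8 receptors, Ccr2 had the largest fitted difference between groups. Its scaled count was 32.0 in PBS control 1, 23.7 in the averaged controls 2 and 4 (19.0 and 29.7 singly) and 56.4 in PBS control 3. In treated tumors it was 144 in STING agonist 1, 107 in STING agonist 2, 58.1 in STING agonist 3 and 113 in STING agonist 4. All 4 treated tumors lay above all controls, but STING agonist 3 only just, since its 95% Poisson interval for counting error was 43.9 to 75.5 and that of PBS control 3 was 44.5 to 70.4. The remaining 3 treated tumors had intervals that began at 85.4 or higher, above those of every control. Mean levels were 37.3 ± 17.0 (SD, n = 3) in controls and 105 ± 35.4 (SD, n = 4) in treated tumors, a 2.82-fold difference.

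The fitted log2 fold change of Ccr2 was 1.48 (SE 0.40). Its unadjusted p in edgeR's quasi-likelihood test was under 0.05. Its adjusted p over all 750 genes was 0.175, so it did not pass the correction. That was the lowest adjusted p on the panel, but other genes shared it, among them Ccrl2, Clec7a and Itgax, so it does not single out Ccr2. The exact permutation test of log2 scaled counts gave a two-sided p of 0.057, where 3 against 4 samples can give no less than 0.029. With the Wald test of DESeq2 in place of edgeR the adjusted p was 0.017, the lowest of the 22 alternatives, which ran up to 0.408. Without the averaged controls the log2 fold change was 1.24, and without PBS control 3 it was 1.91. With scaling to the total count or to the positive control probes the groups of Ccr2 overlapped, with log2 fold changes of 1.25 and 1.42. In whole tumors, more or fewer cells of a type and more or less RNA per cell cannot be told apart.

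**Figure D1:**
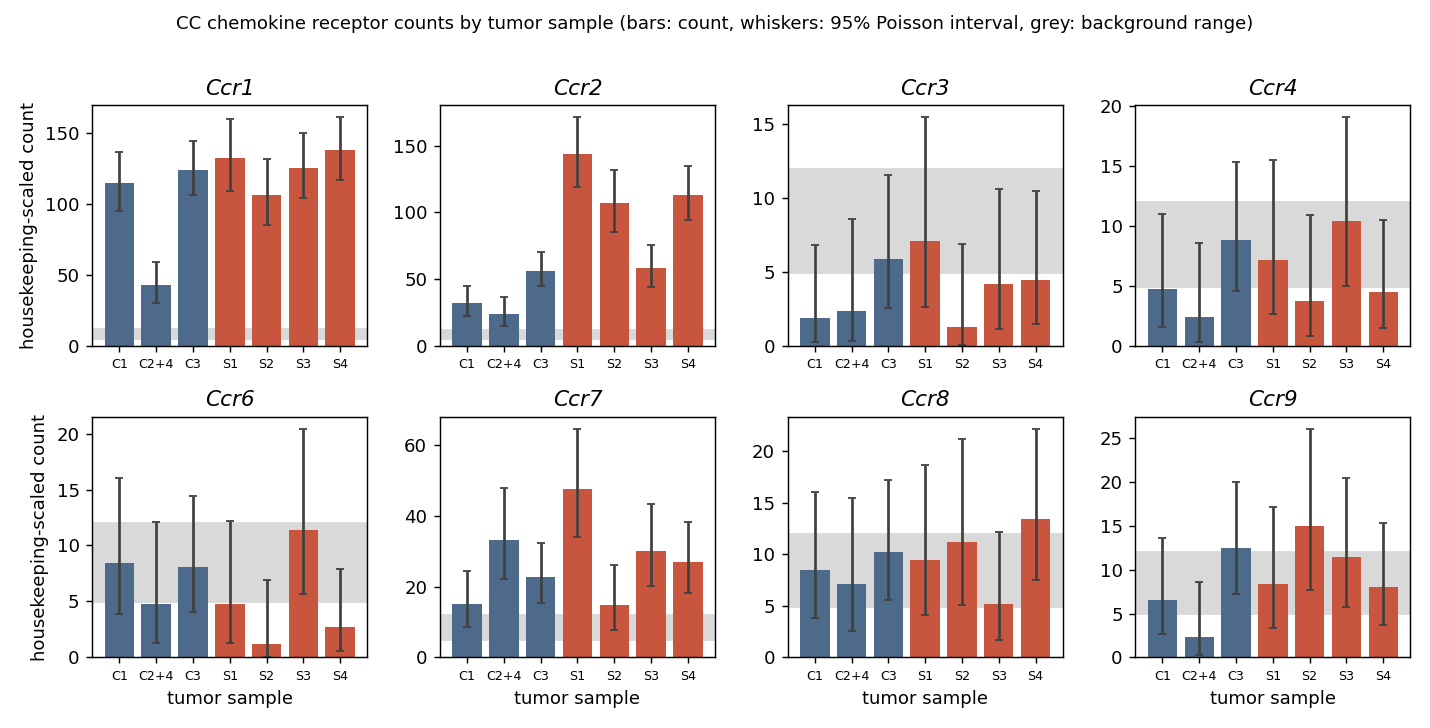
Housekeeping-scaled count of each receptor (y axis, from 0, with its own scale for each gene) in PBS controls (blue; C1, C3 and C2+4, the average of controls 2 and 4) and STING agonist-treated tumors (red; S1 to S4), with 95% Poisson intervals as whiskers. The grey band is the range of background over samples, 4.93 to 12, and Ccr1, Ccr2 and Ccr7 stand above it in all samples while the other 5 receptors lie in or near it.

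Ccr1 gave a different pattern. Its scaled count was 115 in PBS control 1, 42.7 in the averaged controls 2 and 4 and 124 in PBS control 3. In treated tumors it was 133, 107, 126 and 138 in STING agonist 1 to 4. The averaged controls were low, the other controls lay within the treated range, and the groups overlapped. The log2 fold change was 0.41 (SE 0.34), with an adjusted p of 0.553 by edgeR, and it was 0.07 without the averaged controls. These were the controls in which Ptprc and Csf1r were low as well.

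Ccr7 had its highest level in the treated tumor STING agonist 1, at 47.5 scaled counts. The other treated tumors had 14.9, 30.1 and 26.9 in STING agonist 2 to 4. Among controls, PBS control 1 had 15, the averaged controls 33.2 and PBS control 3 22.7. Here the averaged controls were the highest of the controls, opposite to Ccr1 and Ccr2, and the groups overlapped. The log2 fold change was 0.34 (SE 0.45), with an adjusted p of 0.755 by edgeR, and it was 0.65 without the averaged controls and 0.036 without STING agonist 1.

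Ccr1 and Ccr2 lie close together in the mouse genome. In the RefSeq table the order on chromosome 9 includes Ccr9, Fyco1, Cxcr6, Xcr1, Ccr1, Ccr1l1, Ccr3 and Ccr2. Promoter entries were found in RefSeq (GRCm38.p6) for 7 of the 8 receptors, all but Ccr7. The 250 bases before the annotated start are shown for Ccr2, which differed most between groups. They are also shown for Ccr1, which lies near it beyond Ccr3 and Ccr1l1 and had a smaller difference. Both were searched on both strands for the interferon-gamma activated site, TTCNNNGAA. Neither held a match, while 7.02% of 32851 promoter windows of this length did, so neither sequence has capitals. This says only that these letters are not in these windows. Among the other receptors, 1 of 2 windows of Ccr6 held 2 matches and the windows of Ccr3, Ccr4, Ccr8 and Ccr9 held 0.
Ccr2, chr9:124101933-124102182, plus strand: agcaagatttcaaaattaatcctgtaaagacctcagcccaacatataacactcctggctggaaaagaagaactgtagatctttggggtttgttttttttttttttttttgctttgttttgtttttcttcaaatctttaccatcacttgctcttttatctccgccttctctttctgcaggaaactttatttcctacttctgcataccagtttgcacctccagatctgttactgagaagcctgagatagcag
Ccr1, chr9:123968693-123968942, minus strand: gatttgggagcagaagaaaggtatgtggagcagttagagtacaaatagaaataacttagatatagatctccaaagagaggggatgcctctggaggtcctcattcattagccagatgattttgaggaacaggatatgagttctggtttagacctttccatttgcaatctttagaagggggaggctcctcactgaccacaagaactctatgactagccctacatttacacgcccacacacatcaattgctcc

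The remaining 5 receptors were at or near background. Ccr3 was above its sample's background in 0 of 8 tumors, Ccr4 and Ccr6 in 1 each, Ccr8 in 4 and Ccr9 in 5. Scaled counts of Ccr3 ran from 1.88 to 5.86 in controls and from 1.24 to 7.12 in treated tumors. Those of Ccr4 ran from 2.37 to 8.78 and from 3.73 to 10.4. These levels amount to a handful of codes per tumor, and both genes overlapped between groups.

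For Ccr6 the controls had 4.74 to 8.46 scaled counts and the treated tumors 1.24 to 11.4, the highest being STING agonist 3. Its log2 fold change was -0.49 (SE 0.61), the single negative one among the 8 receptors, and without STING agonist 3 it was -1.28 with an unadjusted p under 0.05 and an adjusted p of 0.222 by edgeR. Its adjusted p over the alternatives ran from 0.222 to 0.927. Ccr8 had 7.11 to 10.2 scaled counts in controls and 5.19 to 13.4 in treated tumors. Ccr9 had 2.37 to 12.4 in controls and 8.07 to 14.9 in treated tumors, and its lowest value was again in the averaged controls. Its log2 fold change was 0.50, with 0.13 without them and 1.17 without PBS control 3 as the extremes of the alternatives. None of these 5 genes had an unadjusted p under 0.05 in the main fit, their mean counts were below the 20 taken as measurable, and the sign of the fold changes of Ccr3, Ccr4 and Ccr8 turned under some alternatives.

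Of the 8 receptors, 0 had an adjusted p under 0.05, as had 0 of all 750 genes (0%) by edgeR, while the Wald test of DESeq2 called 44 genes. At an unadjusted p under 0.05, 1 receptor, Ccr2, was higher after treatment, beside 132 of 750 genes (17.6%), and 0 were lower, beside 10 of 750 genes (1.33%). Of the 3 receptors with a mean count of at least 20, which are Ccr1, Ccr2 and Ccr7, 1 was higher at this threshold, beside 121 of 519 genes (23.3%) with such counts. Groups did not overlap for 1 receptor with higher levels after treatment, beside 16.8% of the panel, and for 0 with lower levels, beside 1.47%. The share of receptors was thus near that of the panel. The median log2 fold change was 0.30 over the 8 receptors and 0.22 over all genes.

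That panel median depends on the scale. It was -0.02 after TMM normalization and -0.04 after scaling by DESeq2 size factors, and the share of higher among all genes with an unadjusted p under 0.05 went from 93.0% to 67.7% and 63.9%. Relative to the panel median, the log2 fold change of Ccr2 was 1.26 with housekeeping scaling, 1.29 after TMM and 1.28 with DESeq2 size factors. That of Ccr1 was 0.20, 0.22 and 0.22 in the same order. Another scale multiplies all genes of a sample by the same factor. These near-equal values were thus largely fixed by the method and are no check of Ccr2 or Ccr1.

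**Figure D2:**
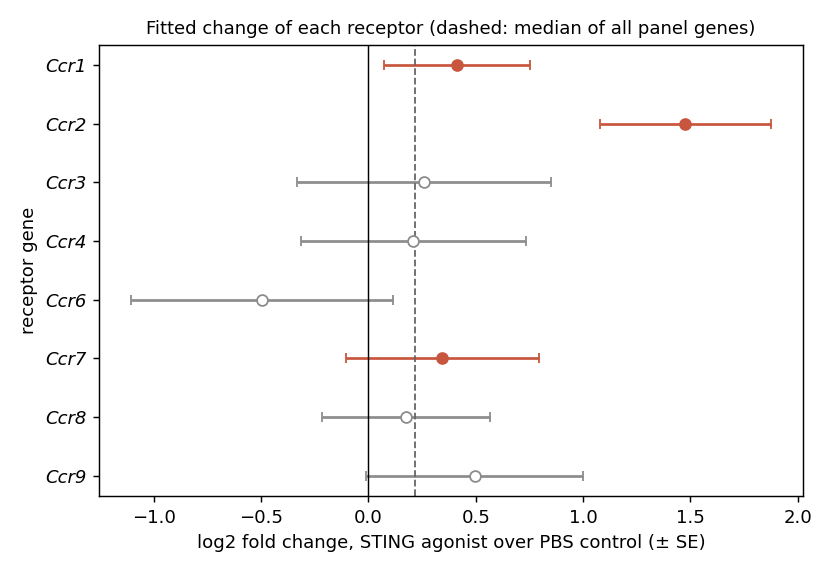
Fitted log2 fold change (x axis) of each receptor (y axis) in 4 treated tumors over 3 PBS controls, with bars of 1 SE; filled points are receptors with a mean count of at least 20, open points those below it, and the dashed line is the median of all 750 genes, 0.22. Ccr2 stands at 1.48 and the other receptors lie between -0.49 and 0.50, with large errors for the open points.

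The receptors were next set against Ptprc in the same sample. Ptprc itself had 261, 169, 142 and 272 scaled counts in STING agonist 1 to 4, all above the controls given above, with a log2 fold change of 1.24 (SE 0.38) and an adjusted p of 0.181 by edgeR. The log2 ratio of Ccr2 to Ptprc was -1.78 in PBS control 1, -0.85 in the averaged controls and -1.0 in PBS control 3. In STING agonist 1 to 4 it was -0.86, -0.66, -1.29 and -1.27. These values overlapped, and the difference of means was 0.19 (exact permutation p = 0.629). It was -0.10 without PBS control 1 and 0.37 without the averaged controls. Relative to Ptprc, then, the groups of Ccr2 did not separate.

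For Ccr1 the log2 ratio to Ptprc was 0.06 in PBS control 1, 0.00 in the averaged controls and 0.14 in PBS control 3. It was -0.97, -0.66, -0.18 and -0.98 in STING agonist 1 to 4. The controls lay close together on this scale, including the pair that was low in both genes, and all 4 treated tumors were below them. The difference of group means was -0.77 with an exact permutation p of 0.057, which did not pass 0.05. With all 8 samples separate it was -0.76 (exact permutation p = 0.029), and without the averaged controls -0.80. The ratio of Ccr7 to Ptprc overlapped between groups, with a difference of -1.04 (exact permutation p = 0.229), and its highest value, -0.36, was in the averaged controls. Without them the difference was -0.29, so most of it rested on this pair. This comparison of 3 ratios was added after the data were seen.

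**Figure D3:**
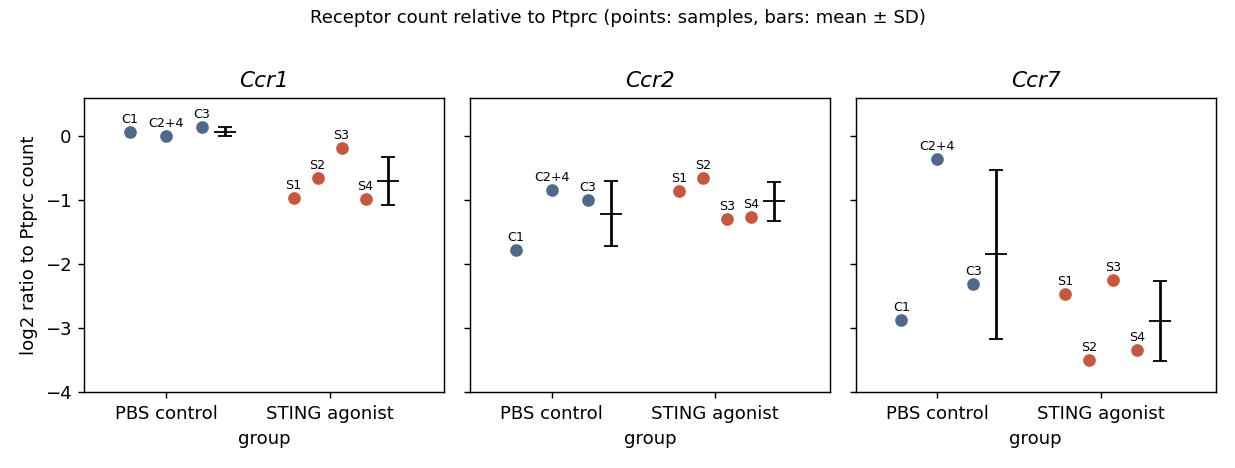
Log2 ratio of the count of Ccr1, Ccr2 or Ccr7 to that of Ptprc in the same sample (y axis) in 3 PBS controls (blue) and 4 STING agonist-treated tumors (red), with mean and SD as black bars. Ccr1 ratios are 0.00 to 0.14 in controls and -0.98 to -0.18 in treated tumors, whereas those of Ccr2 and Ccr7 overlap.

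Of the ligands of these receptors and other CC chemokines, 21 were on the panel, and 12 had a mean count of at least 20. At an unadjusted p under 0.05, 5 of the 21 were higher after treatment and 0 were lower, beside the 17.6% and 1.33% of the panel, and 0 had an adjusted p under 0.05. The 5 were Ccl2, Ccl3, Ccl4, Ccl5 and Ccl7. Groups did not overlap for 4 of the 21, which were all of these except Ccl4, beside 16.8% of the panel. The count of ligands at an unadjusted p under 0.05 fell to 1, Ccl4, after TMM normalization. It fell to 0 with DESeq2 size factors, and to 1, Ccl5, without PBS control 1. The number of higher genes among all 750 fell too, from 132 to 84, 78 and 93 in the same order. Without STING agonist 1 the ligand count was 2, Ccl5 and Ccl7, beside 79 higher genes on the panel, and without the averaged controls it was 4, beside 90. With all 8 samples separate it was 7, with Ccl8 and Ccl12 added, beside 186 higher genes, and with the replicate number as a block on top of this the same 7, beside 159.

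The 3 ligands of Ccr2 on the list were Ccl2, Ccl7 and Ccl12. Ccl2, the main attractant of monocytes, had 3405, 5465 and 5772 scaled counts in PBS control 1, the averaged controls and PBS control 3, and 9130, 6306, 6364 and 8384 in STING agonist 1 to 4. Ccl7 had 471, 608 and 608 in the same controls and 1304, 682, 760 and 1096 in the treated tumors. Log2 fold changes were 0.63 (SE 0.23, adjusted p 0.218 by edgeR) for Ccl2 and 0.77 (SE 0.25, adjusted p 0.189) for Ccl7, smaller than that of Ccr2. They were 0.36 and 0.49 after TMM normalization and 0.35 and 0.48 with DESeq2 size factors, none with an unadjusted p under 0.05. Ccl12 had 255, 99.6 and 246 scaled counts in controls and 305, 358, 225 and 309 in treated tumors, with overlap, and its log2 fold change was 0.58 (adjusted p 0.362 by edgeR) and 0.26 without the averaged controls.

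Of 5 ligands of Ccr1, 3 (Ccl3, Ccl5 and Ccl7) were higher at an unadjusted p under 0.05 with groups that did not overlap, beside 17.6% and 16.8% of the panel, and 0 were lower. A difference between the ligands was not tested. Ccl3, an inflammatory chemokine of macrophages, ran from 28.2 to 64.0 scaled counts in controls and from 79.5 to 113 in treated tumors, and Ccl5, made by T cells and others, from 310 to 353 and from 399 to 603. Their log2 fold changes were 0.90 (SE 0.32) and 0.63 (SE 0.20), with adjusted p-values of 0.206 and 0.181 by edgeR, and 0.63 and 0.35 after TMM normalization, where neither had an unadjusted p under 0.05. Ccl6 and Ccl9, chemokines of myeloid cells, overlapped between groups at -0.16 (SE 0.37) and -0.004 (SE 0.31).

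The ligands of Ccr7 and Ccr9 are chemokines of lymphoid tissue and gut. Ccl21a, which binds Ccr7, ranged from 2.37 scaled counts in the averaged controls to 39.5 in PBS control 1 and from 7.12 in STING agonist 1 to 95.6 in STING agonist 2. Its log2 fold change was 1.05 with an SE of 0.87, and it was 0.50 without STING agonist 2 and 1.65 without PBS control 1. Ccl25, which binds Ccr9, was at -0.21 (SE 0.28), with -0.12 without STING agonist 4 and -0.45 with DESeq2 size factors as the extremes of the alternatives. Ccl8, a ligand of Ccr8, was at 0.69 (SE 0.33, adjusted p 0.294 by edgeR), with 0.37 without the averaged controls and 1.01 without PBS control 3. Ccl11, the eosinophil attractant that binds Ccr3, was at 0.35 (SE 0.34). It was at 0.051 with DESeq2 size factors, 0.10 without PBS control 1 and 0.65 without the averaged controls. The other ligands, Ccl17 and Ccl22 of Ccr4, Ccl20 of Ccr6, Ccl1 of Ccr8, Ccl19 of Ccr7, and Ccl24 and Ccl26 of Ccr3, and the further chemokines Ccl27a and Ccl28, had mean counts of 2.29 to 19.6, and all overlapped between groups.

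**Figure D4:**
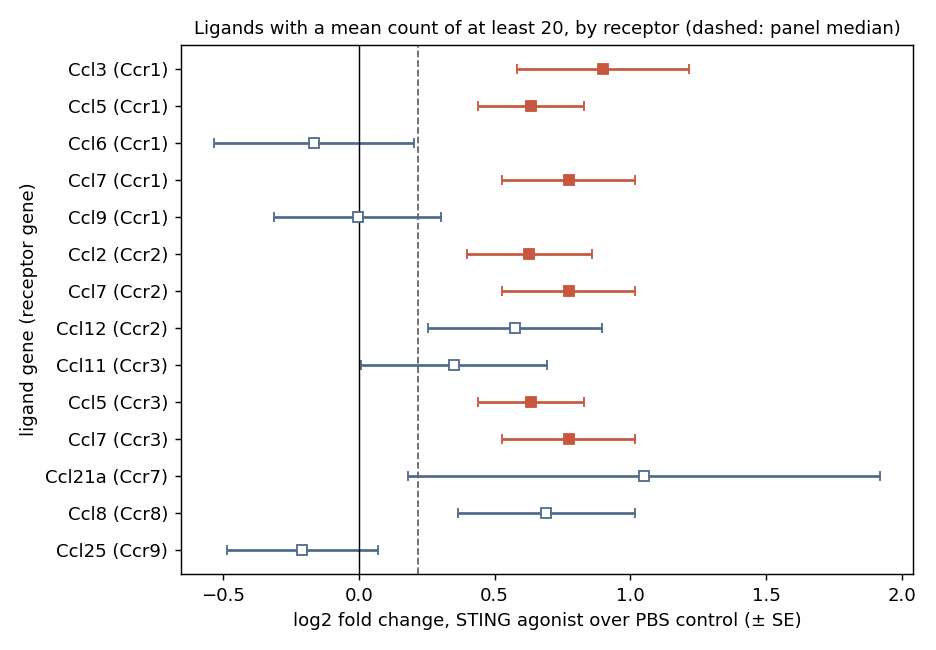
Fitted log2 fold change with 1 SE (x axis) of ligands with a mean count of at least 20, each beside its receptor (y axis; a ligand of several receptors appears once for each), in 4 treated tumors over 3 PBS controls. Filled red squares mark an unadjusted p under 0.05, open blue squares the rest, and the dashed line is the median of all genes, 0.22; both Ccl2 (0.63) and Ccl7 (0.77), ligands of Ccr2, are filled.

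Beyond the CC family, 10 other chemokine receptors of the list were on the panel, of which 2, Cxcr6 and Ccrl2, were higher at an unadjusted p under 0.05 and 0 were lower, a share near the 17.6% and 1.33% of the panel. Cxcr6, a receptor of T and NK cells whose gene lies between Ccr9 and Ccr1, had 19.7, 9.48 and 34.4 scaled counts in controls and 102, 52.2, 38.4 and 80.7 in STING agonist 1 to 4. Its log2 fold change of 1.65 (SE 0.50, adjusted p 0.181 by edgeR) was close to that of Ccr2. Ccrl2, an atypical receptor that binds chemerin, was at 1.11 (SE 0.30, adjusted p 0.175 by edgeR). In both genes STING agonist 3 was the lowest treated tumor, as it was for Ccr2. It was also the lowest for Ptprc, Cx3cr1 and Cmklr1, while STING agonist 2 was the lowest for Cxcr4. Cx3cr1, Cxcr4 and Cmklr1 were at 0.94, 0.25 and 0.21 with overlapping groups, and the signs of Cxcr4 and Cmklr1 turned under some alternatives. Over the alternatives Cxcr4 ran from -0.059 to 0.43. Cmklr1 ran from -0.20 without the averaged controls to 0.83 without PBS control 3. Cx3cr1 was at 1.92 without PBS control 1 and at 1.44 with all 8 samples separate and the replicate number as a block, each with an unadjusted p under 0.05 (adjusted p 0.346 and 0.206 by edgeR). It was at 1.19 with all 8 separate and no block, and at 0.53 without the averaged controls. Cxcr1, Cxcr2, Cxcr3, Cxcr5 and Xcr1 had mean counts of 3.29 to 15.9 and overlapped.

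The profiles over the 7 samples were compared by the root mean square difference of centered log2 scaled counts, among other genes with a mean count of at least 20. Nearest to Ccr2 were Clec7a, the beta-glucan receptor of myeloid cells (0.16), and Lif, a cytokine (0.24), where Ccr2 itself deviated from its mean by 0.88. Clec7a had a log2 fold change of 1.60 with groups that did not overlap. Nearest to Ccr1 were Cd84, a SLAM family receptor (0.16), and Inpp5d, which encodes the phosphatase SHIP1 (0.16), against 0.54 for Ccr1 itself. For Ccr7, which also deviated by 0.54, the nearest were S100a8, a calgranulin of neutrophils (0.20), and Cd14, a myeloid coreceptor for lipopolysaccharide (0.23), neither of which differed by more than its error, at 0.15 and 0.08. S100a8 was the most abundant of the 4 neutrophil markers on the panel, whose sums in STING agonist 1 to 4 were 666, 302, 537 and 401, and their part in the values of Ccr7 was not tested. No gene was among the 2 nearest of more than 1 of these receptors.

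Cell type markers were read beside the receptors. Of the monocyte and macrophage markers, 10 of 11 were on the panel. At an unadjusted p under 0.05, 2 were higher (Emr1 and Fcgr1) and 1 lower (Marco), beside 17.6% and 1.33% of the panel. By this measure the share of higher genes was near that of all genes. Groups did not overlap for 3 of the 10, all higher (Csf1r, Emr1 and Fcgr1), beside 16.8% of the panel, while those of Marco overlapped. The 10 markers summed to 4988 scaled counts in PBS control 1, 2425 in the averaged controls and 6957 in PBS control 3. In STING agonist 1 to 4 the sums were 8087, 6182, 6369 and 7841. Lyz2, which encodes lysozyme, was the most abundant. The averaged controls were the lowest. Of T cell markers, 3 of 13 were higher at an unadjusted p under 0.05, also near the panel's share, and 0 lower. Groups did not overlap for 4 of the 13, all higher (Cd3e, Cd3g, Lck and Cd8b1), beside 16.8% of the panel. The T cell markers summed to 382, 326 and 451 in controls and 694, 415, 472 and 660 in treated tumors, with Thy1 the most abundant. The part of these cell types in the difference of Ccr2 was not tested.

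The weakly measured receptors are best known from eosinophils and lymphocytes. Of the eosinophil markers 2 of 5 were on the panel, each above its sample's background in 2 of 8 tumors, with Prg2 the most abundant at a mean count of 5.86. B cell, Th17, mast cell and regulatory T cell lists had 0 of 8, 0 of 4, 0 of 4 and 0 of 5 measured genes at an unadjusted p under 0.05, and Foxp3, the defining factor of regulatory T cells, had a mean count of 4, while Il2ra (70.7), Ikzf2 (37.3) and Ctla4 (36.3) of the same list were measurable. Of dendritic cell markers 2 of 5 were higher, of NK cell markers 1 of 6, and of neutrophil and epithelial markers 0 of 4 and 0 of 3, with 0 lower in each, beside 17.6% higher and 1.33% lower on the panel, and these lists are too short to read a share from. No marker was at 0, since the lowest count of any probe in the files was 1.

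Hepatocyte genes were high in 1 tumor. Of 19 listed, 11 were on the panel, and their summed scaled count was 1615 in STING agonist 4 against 59.3 to 116 in the controls and 73.7 to 78.3 in the other treated tumors, with Ambp the most abundant at 775 in STING agonist 4. At an unadjusted p under 0.05, 1 of the 11, Ambp, was higher, beside 17.6% of the panel, and its groups overlapped, with 2.48 to 11.9 scaled counts in the other treated tumors. Without this tumor the log2 fold change of Ccr2 was 1.44 (adjusted p 0.327 by edgeR) and that of Ccr1 was 0.36.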

How the data were processed

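The 8 receptors and all gene lists were chosen with earlier results of these data known. RNA of 8 whole tumors was measured on the nCounter PanCancer Immune mouse panel, and the authors deposited whole-number counts of 784 probes, not scaled or background-subtracted. Of these, 750 were immune-related, 20 housekeeping, 8 negative and 6 positive control probes. No count was below 1, so a value of 1 may stand for no signal. The study's own later steps used nSolver and R, with no version given in the sources used here.

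Groups and replicate numbers came from the sample titles. Each sample was scaled by its housekeeping geometric mean, and PBS controls 2 and 4 were averaged and rounded. In R 4.3.3, edgeR 4.0.16 was fitted to all 750 genes (quasi-likelihood, no covariate, no filter) with Benjamini-Hochberg adjustment over all genes, and the SE was the fitted change divided by the root of the F statistic. The fit was tested on simulated data. Single values were tested by two-sided exact permutation over 35 arrangements of log2(scaled count + 1), with Python 3.11.15 and scipy 1.17.1. Where samples were kept separate or left out, the arrangements were those of the samples used. Ratios to Ptprc used the counts themselves. Poisson intervals cover counting error only, and counts of at least 20 were taken as measurable. Probes may differ in efficiency, so the most abundant gene of a list is only the one with the highest count, and ratios to Ptprc were compared between samples only.

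Named genes were the receptors, the listed ligands and other chemokine receptors on the panel, the 2 nearest profiles of each receptor with a mean count of at least 20, and Ptprc. Marker genes came from 13 lists, and those named from them, such as Csf1r, Emr1, Marco and Ambp, were picked after their values were seen. Probes of all 8 receptors matched the same symbol in RefSeq (GRCm38.p6) by transcript. Alternatives were 5 other scalings, background subtraction, 2 count filters, DESeq2 1.42.0 (Wald test) or limma 3.58.1 in place of edgeR, the per-gene test the study's methods name, pseudocounts of 0.1 and 20, all 8 samples separate, PBS controls 2 and 4 left out, each sample left out, and the replicate number as a block with all 8 samples separate. Chosen after seeing the data were the ratio to Ptprc and the alternatives for the fold changes of single ligands and other receptors, while those for the count of ligands were planned. Not every CC chemokine receptor gene of the panel is reported here. A second motif was searched for in the promoter windows in an earlier run and is not reported here.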

Additional observations from a re-analysis of the deposited data

Results flagged for a closer look

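Ccl6, a ligand of Ccr1, had 1 treated tumor far from the others. Its scaled count was 409 in STING agonist 3 and 205, 206 and 200 in STING agonist 1, 2 and 4, so that the gap to the next tumor was 0.97 of the whole range. PBS control 3 was high too, at 450, against 199 and 206 in the other controls. Among 26 genes looked at in this way, none of the 8 receptors was flagged, and chance alone flags about 1 in 20 groups.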

How the results depend on the processing

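Ccr2 was higher after treatment, at an unadjusted p under 0.05, in all 22 alternatives (log2 fold change 1.24 to 1.91), and its adjusted p passed 0.05 in 1 of them, the Wald test of DESeq2 (1.48, adjusted p 0.017, range over alternatives 0.017 to 0.408), which called 44 panel genes. Ccr1 (0.07 to 0.77), Ccr7 (0.04 to 0.65), Ccr6 (-1.28 to -0.21) and Ccr9 (0.13 to 1.17) kept their sign in all alternatives that gave a value. After TMM normalization 1 ligand passed an unadjusted p under 0.05, Ccr8 was at -0.054 and Cxcr4 at -0.053. With DESeq2 size factors 0 ligands passed, Ccr4 was at -0.0076, Ccr8 at -0.068 and Cxcr4 at -0.059. Scaled to the total count, 0 receptors had groups that did not overlap, Ccr8 was at -0.040 and Cmklr1 at -0.024, and scaled to the positive control probes 0 receptors had such groups. The per-gene test of the study's methods passed 2 ligands, and limma put Ccl9 at 0.022. With PBS controls 2 and 4 left out, Ccr4 was at -0.089 and Cmklr1 at -0.20. Same-numbered samples did not deviate together (correlations of -0.28 to -0.06). With 4 samples per group, and PBS controls 2 and 4 near-identical, this check cannot exclude a pairing. The replicate number as a block, fitted with all 8 samples separate, changed no receptor's call. It put Ccr2 at 1.65 and Ccl9 at 0.17, against 1.60 and 0.14 with all 8 separate and no block. With each sample left out in turn, 0 to 7 panel genes passed the adjusted threshold and 85 to 160 the unadjusted one. Receptors that passed unadjusted numbered 1 to 2 (Ccr6 beside Ccr2 without STING agonist 3), those that did not overlap 1 to 2 (Ccr9 added without PBS control 3, Ccr1 without STING agonist 2), and ligands that passed 1 to 6. In these fits Ccr3 ran from -0.056 to 0.98, Ccr4 from -0.12 to 0.81, Ccr8 from -0.034 to 0.39, Ccl6 from -0.49 to 0.33 and Ccl9 from -0.24 to 0.33, and the log2 ratio of Ccr2 to Ptprc differed by -0.10 to 0.30, and by 0.37 with PBS controls 2 and 4 left out. The difference of Ccr7 to Ptprc fell from -1.04 to -0.29 without that pair. Cx3cr1 passed an unadjusted p under 0.05 without PBS control 1 (1.92) and with all 8 samples separate and the block (1.44, against 1.19 without the block). With all 8 samples separate the exact permutation p of the ratio of Ccr1 to Ptprc passed 0.05 (-0.76, p = 0.029), but with the near-identical PBS controls 2 and 4 counted as separate samples. The cause of these changes was not tested. Filters on low counts gave no value for receptors below them. Ccr3, Ccr4, Ccr6, Ccr8 and Ccr9 had mean counts of 4 to 9.43, below the 20 taken as measurable.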
